A study of Homo sapiens with 6 samples.

Results

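RNA of A375 melanoma cells that carried an empty plasmid was profiled, to describe which genes these cells express without any added long non-coding RNA. The profile rests on the 3 libraries titled Empty, replicates 1 to 3, out of 6 libraries in the series, and on every row of the count table that names a gene. A375 is an established human melanoma line, best known for an activating mutation of the kinase BRAF. The cells were cultured in DMEM with fetal bovine serum and transfected through a lipid reagent with a pcDNA3.1 plasmid, for which the labels give the genotype as vector backbone control and which holds a puromycin resistance gene and a CAG promoter. They then grew for 48 h in puromycin at 2 µg/mL before RNA was taken, and ribosomal RNA was depleted before sequencing. The other libraries came from cells given the same treatment with a plasmid for the RNA SLNCR, and they were not compared here. All 3 libraries passed through transfection and selection and no untreated A375 sample was used, so the levels below belong to cells after both steps, and what either step contributed cannot be told apart from the resting state of the line.

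Melanocytes arise from the neural crest and make pigment in melanosomes under the control of the transcription factors MITF, SOX10 and PAX3. Melanoma cells can keep this programme or leave it for neural crest-like and dedifferentiated states, which are known for the receptor kinase AXL, the AP-1 factor FOSL1 and matrix genes. Mutant BRAF keeps the RAF-MEK-ERK cascade active, and ERK in turn switches on feedback genes such as the DUSP phosphatases and the Sprouty proteins. In bulk RNA, fewer cells of a kind and less RNA per cell cannot be told apart.

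Levels are given in TPM, that is reads per kilobase of merged exons scaled to a sum of 1000000 in each library, as the mean ± SD of 3 libraries, so that different genes can be set side by side. The SD covers the spread between libraries and not the uncertainty of a gene's length. A gene is called expressed at 1 TPM or more in each of the 3 libraries. Named genes held 10149341, 9054136 and 9108847 counts in replicates 1, 2 and 3, and between 12738 and 12816 genes reached 10 counts per library. The libraries repeated closely, with a common biological coefficient of variation of 4.23% (edgeR) and a Pearson's r of 0.995 for log2 CPM (counts scaled to a sum of 1000000) in each pair, over 12710 genes. They still differed by more than counting noise (chi-square per degree of freedom 1.79 to 3.25). Repeat libraries of one culture can differ this much too, so it says nothing of how separate the cultures were. The labels call them biological replicates without saying how the cultures were separated.

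Of 18305 genes with a known length, 12446 (68.0%) were expressed. Of 15189 protein-coding genes among them, 11143 (73.4%) were expressed, 7804 (51.4%) reached 10 TPM in each library and 1191 (7.84%) reached 100 TPM. The 73.4% is the background for every count of expressed list members below. Below, "all protein-coding genes" means these 15189, which the count table holds, and not every gene of the genome. Listed genes that were not measured are left out of the counts. The median protein-coding gene stood at 11.8 ± 0.497 TPM (SD over libraries, n = 3). Protein-coding genes took 94.6% to 95.1% of the counts. At the other end, 2175 protein-coding genes (14.3%) had at most 3 counts in every library.

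The most abundant messages belonged to translation, the cytoskeleton, iron storage, chaperones and chromatin. GAPDH, a glycolytic enzyme, led the protein-coding genes with 6667, 6763 and 6682 TPM in replicates 1, 2 and 3. The ferritin chains that store iron followed, FTH1 at 5467 ± 186 TPM and FTL at 5361 ± 65.8 TPM (SD, n = 3), and their library ranges overlapped. With the longest transcript as length FTH1 stood at 1.68 times FTL (1.02 times with merged exons), and 62.4% of the exon length of FTH1 is shared with BEST1. ACTB, which encodes β-actin, stood at 4578 ± 116 TPM and was higher than γ-actin ACTG1 in each library, at 1.56 ± 0.0216 times its level (SD, n = 3). Of the 25 most abundant protein-coding genes, 8 encode ribosomal proteins or translation factors, 5 encode replication-dependent histones, 3 encode actins or an actin-binding protein, 2 cytosolic chaperones and 2 ferritin chains. The gene models of these 5 histones are 312 to 642 bases long and may hold the coding length alone, which would raise their TPM and rank. Among them H3C4 shares 100% of its exon length with other genes. The elongation factors EEF1A1 and EEF2 stood at 2683 ± 58.9 and 1782 ± 40.05 TPM, the heat shock proteins HSPA8 and HSP90AB1 at 2873 ± 168 and 2681 ± 99.4 TPM, and the intermediate filament VIM at 1989 ± 4.62 TPM. The ribosomal protein gene RPS2 was at 2486 ± 65.9 TPM and PABPC1, which binds poly(A) tails, at 1540.4 ± 67.5. THBS1, a secreted matrix glycoprotein, was at 1779, 1846 and 1877 TPM in the 3 libraries and ranked 18th, and KRT81, a hair-type keratin with near-identical relatives, was at 1932, 1796 and 1759.8.

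Many messages of the translation machinery carry a terminal oligopyrimidine tract, a run of C and T that begins with a C at the transcript start and through which mTOR signalling is known to govern their translation. The sequence around the start site is shown for 8 of the 25 most abundant protein-coding genes, so that the tract can be read beside starts that lack it. Of these 25 genes 20 have a promoter entry, and the 5 with a tract come first. Each window runs from 15 bases before the start to 20 bases after it, 5′ to 3′, from RefSeq (GRCh38.p14), and the capitals mark the pyrimidine tract.
EEF1A1 (chr6:73521013-73521047, minus strand): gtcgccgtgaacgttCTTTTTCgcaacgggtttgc
RPL13A (chr19:49487593-49487627, plus strand): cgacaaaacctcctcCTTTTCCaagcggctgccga
EEF2 (chr19:3985444-3985478, minus strand): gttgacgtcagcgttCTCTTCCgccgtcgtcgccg
RPS6 (chr9:19380217-19380251, minus strand): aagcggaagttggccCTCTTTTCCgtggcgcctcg
NPM1 (chr5:171387834-171387868, plus strand): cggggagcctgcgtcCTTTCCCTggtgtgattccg
GAPDH (chr12:6535249-6535283, plus strand): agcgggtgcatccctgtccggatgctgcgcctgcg
VIM (chr10:17228226-17228260, plus strand): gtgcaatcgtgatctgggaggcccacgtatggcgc
THBS1 (chr15:39581064-39581098, plus strand): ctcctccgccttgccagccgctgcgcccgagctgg

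A tract was counted where the first base of the transcript was C and at least 4 pyrimidines followed. It was found at the listed start of 619 of 12190 counted protein-coding genes with a RefSeq promoter (5.08%), and of 1104 of all 27305 promoters of that table (4.04%). Among ribosomal protein genes the count was 42 of 62, among translation factors 8 of 17, among glycolytic genes 0 of 22 and among actin and tubulin cytoskeleton genes 1 of 27. Ordered by level, the tract stood at 8 of the 25 most abundant genes with a promoter entry, 16 of the next 75, 48 of the next 400 and 106 of the next 1500, against 106 of 3025 genes that were not expressed. Ribosomal proteins and translation factors were 34 of the 100 most abundant protein-coding genes. Whether the share falls with rank without these families was not tested. RPL19 and EIF5A belong to this machinery and show no tract at their listed RefSeq start. A match describes these letters at one listed start site and says nothing of how the message is translated here.

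**Figure D1:**
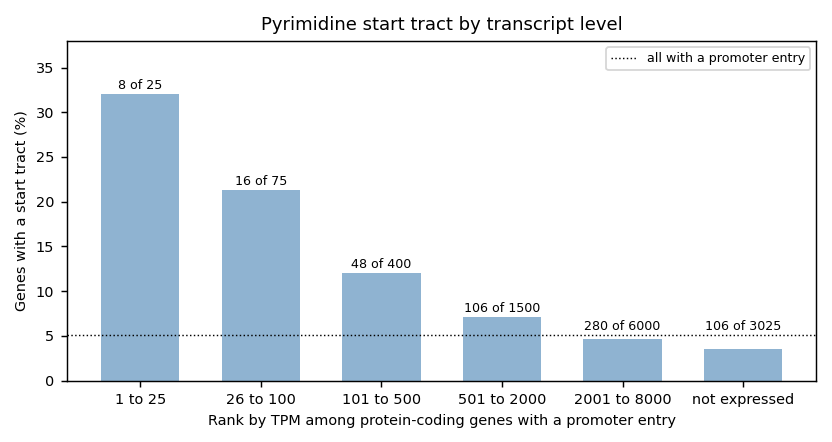
Share of protein-coding genes (vertical axis, percent) whose listed RefSeq start carries a pyrimidine tract, by rank of mean TPM among genes with a promoter entry (horizontal axis), with the counts above the bars. The share falls from 8 of 25 in the highest class to 280 of 6000 in the lowest ranked class shown, beside 106 of 3025 among genes not expressed, and the dotted line is the 5.08% of all such genes.

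Lists of genes were chosen for the tissue and the treatment, with earlier results of these data known. Their medians and shares are descriptions and not tests. They covered a wide range of levels. Ribosomal proteins had the highest median on average, 474 ± 5.96 TPM (SD over libraries, n = 3), with 74 of 75 members expressed. Replication-dependent histones came next at 438 ± 47.9. In replicate 1 the histones were higher (492.8 against 477.1 TPM), so the library ranges overlapped. Translation factors stood at 267 ± 9.05, cytosolic chaperones at 244 ± 8.14 and actin and tubulin genes at 194 ± 12.6. Muscle, liver and gut, and endothelial markers had medians of 0.0229, 0.0295 and 0.04296 TPM with 0 members expressed. Markers of the dedifferentiated melanoma state stood at 88.8 ± 2.89 TPM and melanocyte differentiation genes at 1.21 ± 0.2875.

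**Figure D2:**
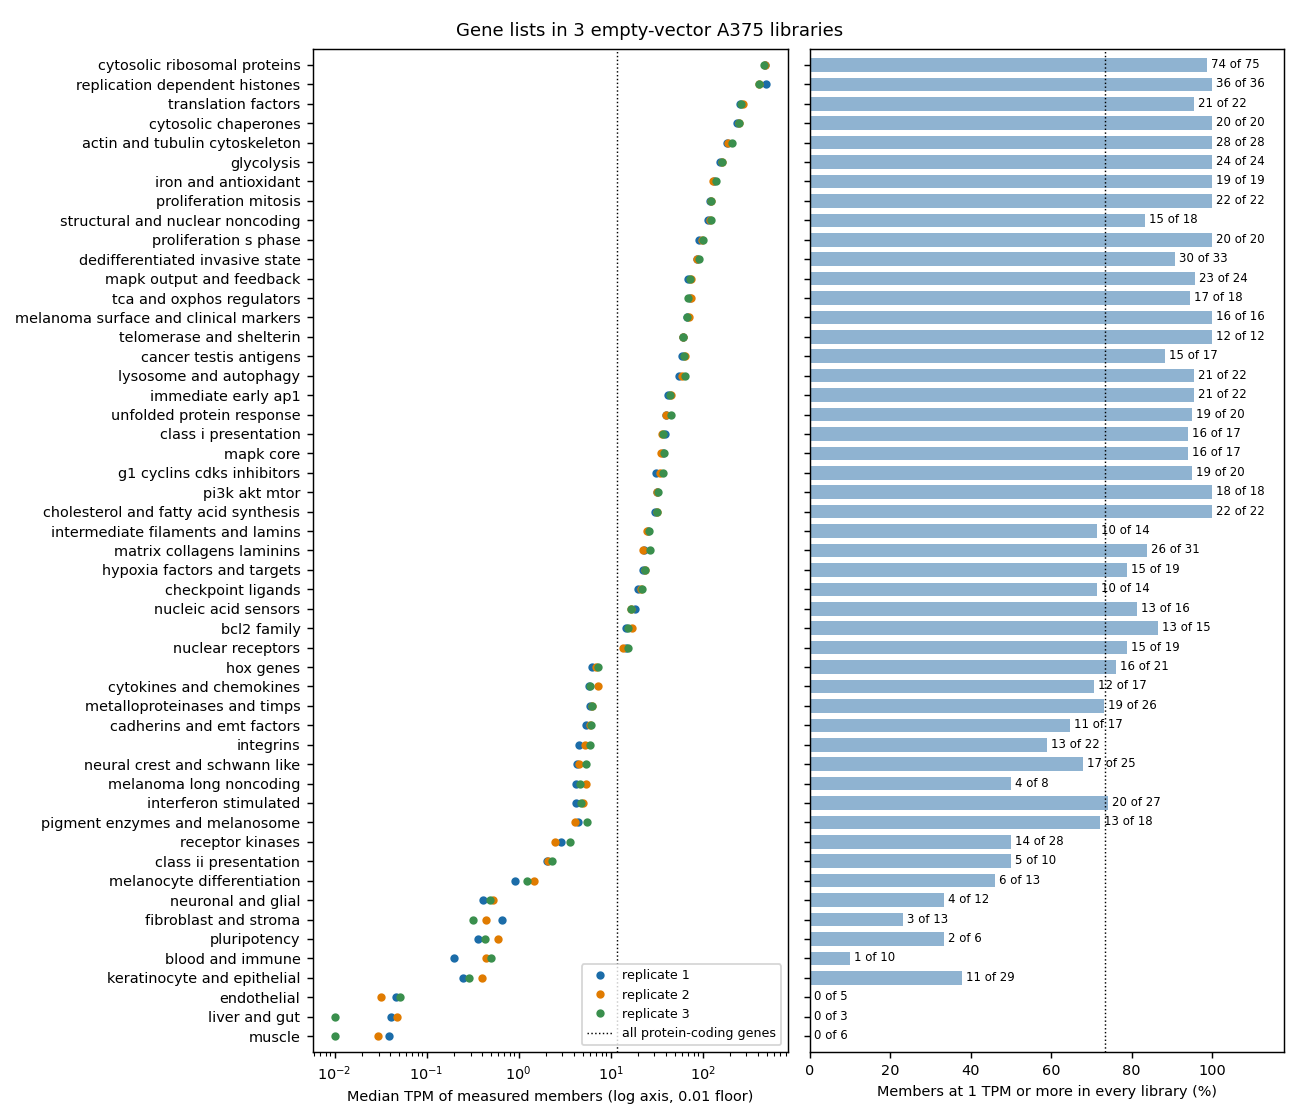
Left, median TPM of the measured members of each gene list in each library (horizontal log axis, values under 0.01 drawn at 0.01), with the dotted line at the 11.8 TPM of all protein-coding genes. Right, percent of measured members at 1 TPM or more in every library, with counts beside the bars and the dotted line at the 73.4% of all protein-coding genes.

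Pigment enzymes were nearly absent although the gene MITF, which encodes the regulator of the pigment programme, was expressed. Its reads were counted over all exons of the gene, so which MITF transcripts were present was not tested. MITF (chromosome 3, 69739435 to 69968337, GRCh38) was at 30.1, 36.2 and 39.5 TPM in replicates 1, 2 and 3, which is 35.25 ± 4.796 (SD, n = 3), lowest in replicate 1 and above the median protein-coding gene in each library. PMEL, the fibril protein of melanosomes, had 2, 4 and 3 counts, or 0.247 TPM on average. DCT, an enzyme of melanin synthesis, had 1, 2 and 1 counts. TYRP1, a related enzyme, had 7, 4 and 6 counts, and the transporter SLC45A2 had 1, 0 and 1. MLANA, the antigen known as Melan-A, was just above the threshold at 1.46, 1.61 and 1.297 TPM. In all, 13 of 18 measured pigment and melanosome genes were expressed, close to the 73.4% of all protein-coding genes, with a list median of 4.66 ± 0.739 TPM. Expressed members that act in vesicle or melanosome traffic included AP3B1 at 29.98 ± 2.46 TPM and MYO5A, a myosin that carries melanosomes, at 24.5 ± 2.77. The Rab GTPases RAB32 and RAB38 were at 21.3 ± 0.353 and 15.7 ± 0.697, and MLPH at 8.14 ± 0.654. SLC24A5 and GPR143 were also expressed. GPNMB, a melanosomal and lysosomal glycoprotein, stood at 23.5 ± 0.7935 TPM, 16.3 ± 2.10 times the level of MLANA with merged exons as length and 26.9 times with the longest transcript. TYR was not analysed here.

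MITF is known to bind E-box sequences of the form TCATGTG in promoters of pigment genes. The windows below show these letters, or their reverse complement CACATGA, in promoters of pigment genes at both low and higher levels, so that letters and levels can be set side by side. Each runs for 30 bases in the direction of the gene, from RefSeq (GRCh38.p14), with the motif in capitals.
TYRP1 (chr9:12693228-12693257, plus strand, 145 bases before the start): gttggaagggaaTCATGTGctgatcaagtc
GPR143 (chrX:9765891-9765920, minus strand, 61 bases before the start): agaggcccagggCACATGAtgccgccccca
GPR143 (chrX:9765863-9765892, minus strand, 33 bases before the start): cagcccgcccagCACATGAcccaggcaggc
SLC24A5 (chr15:48120963-48120992, plus strand, 15 bases before the start): aaggagactcctCACATGAtccagtttaat
GPNMB (chr7:23246640-23246669, plus strand, 123 bases before the start): gtgagtcataagCACATGAgttgtaagagg
GPNMB (chr7:23246701-23246730, plus strand, 62 bases before the start): gcttaataccatCACATGAtcctccccgag

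The motif, searched on both strands over 300 bases (250 before the start and 50 after), was present in 4 of 14 pigment and melanosome genes with a promoter entry, in 228 of the 12190 counted protein-coding genes (1.87%) and in 817 of all 27305 promoters (2.99%). Levels of the 4 genes differed widely. TYRP1 was at 0.527, 0.354 and 0.534 TPM, GPR143 at 1.36, 2.395 and 2.14, SLC24A5 at 3.83, 3.39 and 5.44 and GPNMB at 22.65, 23.7 and 24.2. DCT and MLANA had no match in this window, which says only that these letters are not there. SLC24A5 shares 32.9% of its exon length with MYEF2, so its reads are uncertain.

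Among other melanocyte genes, the receptors KIT and EDNRB and the channel TRPM1 were low. KIT, the receptor for stem cell factor, had 2, 0 and 0 counts, TRPM1 1, 0 and 0, and EDNRB 18, 25 and 21 counts. MC1R, the melanocortin receptor, was at 4.07 ± 0.518 TPM, and 44.5% of its exon length is shared with other genes. The amino acid transporter SLC7A5, which the list holds as an MITF target but which most growing cells use, was at 1323 ± 10.5 TPM, and the tetraspanin CD63 at 128 ± 0.0529. In all, 6 of 13 measured members were expressed (46.15%, against 73.4% of all protein-coding genes), and IRF4 and BIRC7 were not analysed here.

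Neural crest factors were present unevenly, with SOX9 far above SOX10. SOX9 (chromosome 17, 72121020 to 72126420) was at 109, 110.1 and 108 TPM and SOX10 (chromosome 22, 37970686 to 37987422), which maintains the melanocyte lineage, at 8.88, 11.05 and 12.1. Their library values did not overlap, and SOX9 was at 10.4 ± 1.74 times the level of SOX10 (SD, n = 3). PAX3 stood at 4.80 ± 0.579 TPM, TFAP2A at 10.4 ± 0.347 and its paralog TFAP2C at 77.4 ± 3.64. The nerve growth factor receptor NGFR, a marker of the neural crest-like melanoma state, was at 5.65 ± 0.667 TPM. ERBB3 was at 0.566 ± 0.0211, with 18, 15 and 16 counts. RXRG had 1 count in replicate 2 alone, and SOX6 had 0 in each library. A count of 0 allows up to 3 counts, or 0.296 to 0.331 CPM in these libraries, counting error only. In total 17 of 25 measured members were expressed (68.0%, near the 73.4% of all protein-coding genes), with a median of 4.80 ± 0.579 TPM, and S100B and MIA were not analysed here.

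Genes of the dedifferentiated and invasive melanoma state were mostly expressed, many at high levels. Of the 33 measured, 30 were expressed and 15 reached 100 TPM in each library, against 7.84% of all protein-coding genes. AXL (chromosome 19, 41219203 to 41261766), a receptor kinase that marks this state, was at 481, 510.4 and 505 TPM and stood at 14.3 ± 1.61 times the level of MITF (SD, n = 3). FOSL1, an AP-1 factor, was at 793, 854 and 807 TPM. The surface proteins CD44 and NT5E were at 394 ± 23.0 and 113 ± 6.325 TPM, and the secreted protease inhibitor SERPINE2 at 405 ± 19.1. WWTR1 and YAP1, co-activators of TEAD factors, were at 152 ± 7.57 and 105 ± 6.32 TPM, TEAD4 at 88.8 ± 2.89 and TEAD1 at 77.5 ± 3.22, and the target ANKRD1 at 64.2 ± 3.655. EGFR (chromosome 7, 55019021 to 55211628) was lower, at 40.2 ± 1.89 TPM, and the Wnt ligand WNT5A stood at 28.6 ± 1.76. The 3 members below the threshold were COL1A1, ZEB2 and CYP1B1, at 0.942, 0.814 and 0.443 TPM, and CCN1 and CCN2 were not analysed here.

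Melanoma surface and clinical markers were all present. All 16 measured were expressed, with a median of 68.99 ± 2.34 TPM, led by the galectin LGALS1 at 798 ± 28.3 TPM. The adhesion molecule MCAM was at 123 ± 3.14, the proteoglycan CSPG4 at 68.8 ± 2.27, ALCAM at 57.65 ± 3.85, and CD276, also called B7-H3, at 103 ± 1.77.

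**Figure D3:**
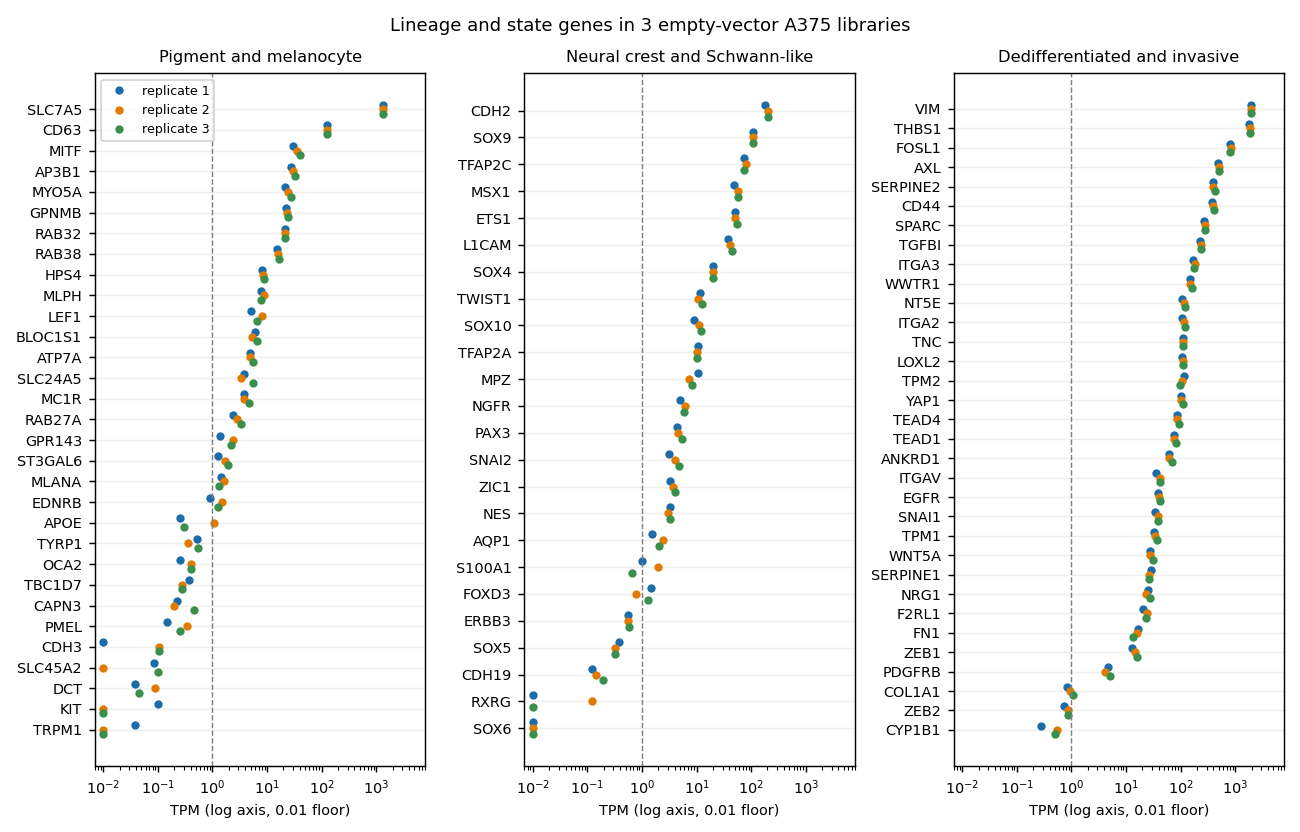
TPM of measured members (horizontal log axis, values under 0.01 drawn at 0.01) in replicates 1, 2 and 3, as coloured points, for pigment and melanocyte genes, neural crest genes and dedifferentiated state genes, ordered by mean. The dashed line marks 1 TPM. DCT, PMEL and TYRP1 lie to its left in every library, whereas AXL, FOSL1 and THBS1 lie far to its right.

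The labels give the cell type as epithelial, and the defining epithelial genes were nearly absent. CDH1, which encodes E-cadherin, had 1, 1 and 2 counts, EPCAM 3, 2 and 2, the keratinocyte factor TP63 1, 0 and 4, KRT5 3, 6 and 5 and KRT14 2, 2 and 2. CDH2, which encodes N-cadherin, was at 183, 206 and 205 TPM. In all, 11 of 29 measured epithelial markers were expressed (37.9%, against 73.4% of all protein-coding genes), and the median of the 29 was 0.312 ± 0.0777 TPM. At most 3 counts in every library were found for 14 of the 29, against 14.3% of all protein-coding genes. Those that were expressed included the simple keratins KRT18 at 352 ± 8.37 TPM and KRT8 at 77.55 ± 3.02, the laminin chain LAMB3 at 167 ± 2.93, and SFN at 28.6 ± 1.48. GRHL2 was not analysed here. KRT80, a keratin outside the list that was picked after its value was seen, stood at 508 ± 3.33 TPM.

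Most markers of other cell types were below the threshold. The summed level of 5 measured endothelial markers was 0.615, 0.897 and 0.826 TPM in replicates 1, 2 and 3, that of 3 liver and gut markers 0.158, 0.111 and 0.139 TPM, and that of 6 muscle markers 0.424, 0.459 and 0.3498 TPM. Among 10 blood and immune markers only CD68, a lysosomal protein of many cell types, was expressed, at 152 ± 6.703 TPM, and 85.8% of its exon length is shared with other genes. The sum of all 10 was 146, 159 and 161 TPM. Among 13 fibroblast markers MMP2 (154 ± 3.64 TPM), ACTA2 and PDGFRB were expressed, while COL1A2 had 0, 2 and 0 counts, COL3A1 1, 1 and 3 and DCN 0, 0 and 1. Without small and structural RNAs in the total, 5 fibroblast and 2 blood markers were expressed. Among 12 neuronal and glial markers TUBB3, NEFL, ENO2 and SNAP25 were expressed, with TUBB3, a neuronal β-tubulin that melanoma cells share, at 198 ± 11.55 TPM. Of the pluripotency genes, LIN28B was at 11.3 ± 2.17 TPM and ZFP42 at 3.21 ± 1.07, and NANOG had 0 counts in each library.

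Among receptor kinases 3 genes stood far above the rest. Of 28 measured, 14 were expressed (50%, against 73.4% of all protein-coding genes), and EPHA2, AXL and MET exceeded 100 TPM. EPHA2, an ephrin receptor, was at 533, 564 and 536 TPM, AXL at 481, 510.4 and 505 and MET, the hepatocyte growth factor receptor, at 245, 258 and 281, and these 3 did not overlap. The next were IGF1R at 41.9, 43.2 and 43.02 TPM and EGFR at 37.99, 40.97 and 41.5, close to each other without overlap. AXL stood at 56.2 ± 2.06 times its relative TYRO3 and 12.4 ± 0.245 times EGFR. ERBB2 was at 13.8 ± 0.0478 TPM and PDGFRB, which can take over from inhibited BRAF in melanoma, at 4.66 ± 0.555, while PDGFRA had 3, 3 and 5 counts. ROR2 had 0 counts in each library, and RET and KDR had at most 1.

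BRAF, the kinase mutated in this line, had a lower message level than its relative ARAF. BRAF (chromosome 7, 140719327 to 140924928) was at 7.40, 8.23 and 9.36 TPM and ARAF at 80.03, 91.2 and 85.9, without overlap. ARAF stood at 10.4 ± 1.03 times BRAF with merged exons as length and at 5.98 times with the longest transcript, so the order held and the distance depended on the gene model. The RAS genes NRAS and HRAS were at 102 ± 5.845 and 32.2 ± 2.24 TPM. MAP2K1, which encodes MEK1, stood at 2.26 ± 0.236 times MAP2K2 (1.39 times with the longest transcript), and MAPK3, which encodes the kinase ERK1, was at 19.9 ± 0.302 TPM. The adaptor SHC1 led the core list at 214 ± 2.225 TPM, and MAP3K8, a kinase known to bypass RAF, was below the threshold in each library (10, 9 and 3 counts).

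Outputs and feedback genes of ERK were nearly all expressed. Of 24 measured, 23 passed the threshold (95.8%, against 73.4% of all protein-coding genes), with a median of 72.4 ± 2.04 TPM. CCND1, the cyclin of G1, was at 318, 313 and 334 TPM. The ERK phosphatases DUSP4, DUSP5, DUSP6 and DUSP7 were at 139 ± 2.26, 80.6 ± 9.685, 72.45 ± 2.46 and 52.9 ± 1.63 TPM. The ETS factors ETV4, ETV5 and ETV1 stood at 89.7 ± 4.305, 85.4 ± 4.42 and 15.1 ± 1.03, the Sprouty genes SPRY2 and SPRY4 at 44.4 ± 4.03 and 20.98 ± 1.53, and SPRED2 at 48.03 ± 2.26. FOSL1 was at 23.9 ± 0.896 times the level of FOS, and MYC at 81.2 ± 4.34 TPM. EPHA4 (1.45, 0.963 and 1.06 TPM) missed the threshold, and SPRY1 was not analysed here. Immediate early genes were also present, with 21 of 22 expressed (95.45%, against the same 73.4%). JUND was at 173 ± 3.13, JUN at 36.5 ± 2.72, EGR1 at 29.3 ± 3.67 and FOSB at 26.4 ± 2.64 TPM.

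**Figure D4:**
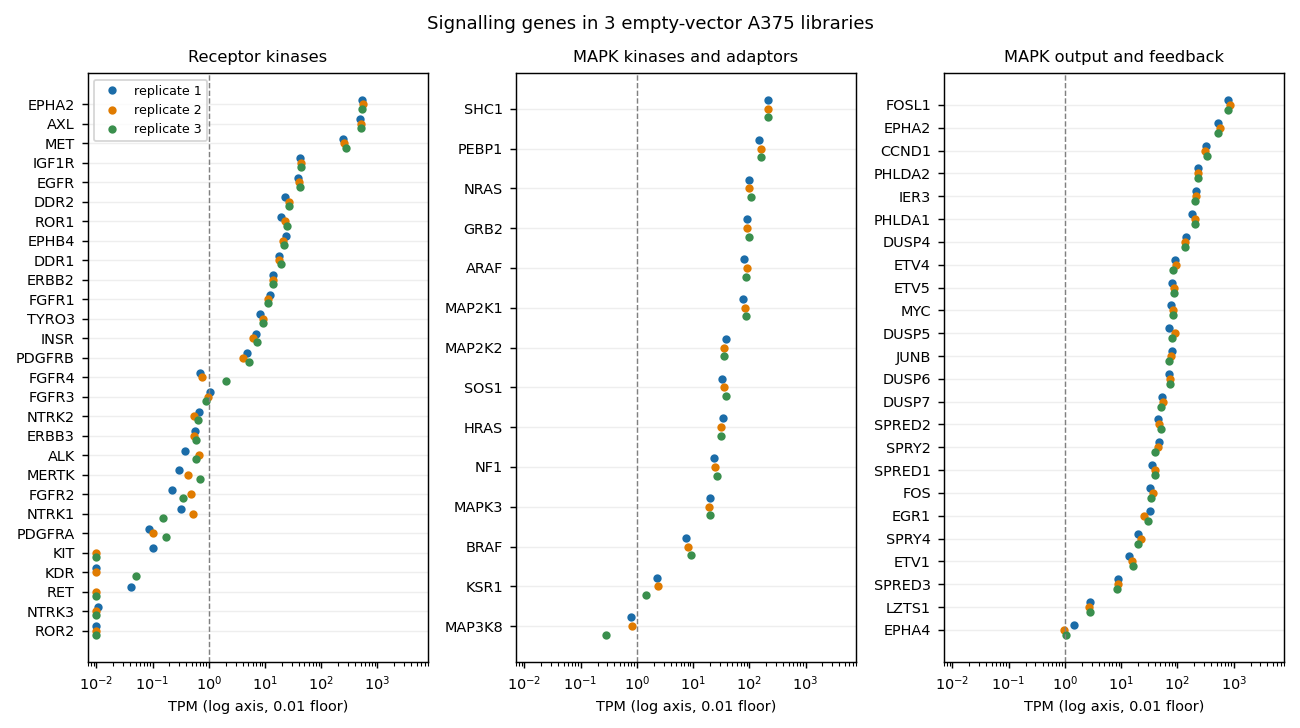
TPM of receptor kinases, MAPK kinases and adaptors, and MAPK output genes (horizontal log axis, values under 0.01 drawn at 0.01) in the 3 libraries, one colour per replicate, ordered by mean. EPHA2, AXL and MET stand apart at the top of the receptors, and BRAF lies below ARAF in each library.

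All 18 genes of the PI3K, AKT and mTOR pathway were expressed, with a median of 32.4 ± 0.758 TPM. PIK3CB, a catalytic subunit of PI3K, was at 30.6 ± 1.45 TPM and PIK3CA, another, at 15.3 ± 1.65. The translational repressor EIF4EBP1 was highest at 206 ± 15.4 TPM.

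Proliferation genes were all expressed. All 20 genes of S phase and all 22 of mitosis were expressed, with medians of 96.96 ± 5.71 and 123 ± 1.79 TPM. PCNA, the sliding clamp of DNA polymerase, was at 559 ± 34.1 TPM, the ribonucleotide reductase subunit RRM2 at 267 ± 12.35, CDC20, an activator of anaphase, at 502 ± 5.73, CCNB1 at 355 ± 20.65, and MKI67, the proliferation marker Ki-67, at 192 ± 2.615. In G1, CCND1 stood at 12.4 ± 0.587 times CCND3 (5.74 times with the longest transcript) and CDK4 at 2.08 ± 0.209 times CDK6. The inhibitor CDKN1A, which encodes p21, was at 268, 257 and 278 TPM. CDKN2A, which encodes p16 and ARF and is often lost in melanoma, was at 1.63, 1.53 and 1.23, only just above the threshold, or 3.91 TPM on average with the longest transcript. RB1 was at 46.5 ± 4.97 TPM, E2F4 at 205 ± 11.1 and E2F1 at 57.6 ± 2.05. CCND2 and CDKN2B were not analysed here.

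Of the 15 measured BCL2 family genes, which govern cell death, 13 were expressed (86.7%, against 73.4% of all protein-coding genes). The pro-death genes BAX and PMAIP1 were at 145 ± 5.95 and 94.3 ± 10.1 TPM. The survival gene MCL1 led the family at 184 ± 6.15 TPM and stood at 2.06 ± 0.0455 times BCL2L1, while BCL2 itself was at 4.11 ± 0.529 TPM, and BCL2L1 was at 21.9 ± 2.095 times BCL2. The pro-death sensitizers HRK and BMF were below the threshold, at 0.138 and 0.354 TPM, and BCL2A1 was not analysed here. All 12 telomerase and shelterin genes were expressed, with the catalytic subunit TERT lowest at 3.12, 4.097 and 3.69 TPM, the RNA TERC at 105 ± 7.96 and the pseudouridine synthase DKC1 at 212 ± 9.07.

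Antigens normally limited to the germ line were abundant. Of 17 measured cancer-testis genes 15 were expressed (88.2%, against 73.4% of all protein-coding genes), with a median of 61.8 ± 2.40 TPM. In each library 6 reached 100 TPM, against 7.84% of all protein-coding genes. MAGEA4 (chromosome X, 151912509 to 151925170) was highest at 529.6, 561 and 552 TPM, then MAGEC2 at 313, 314 and 324. PAGE5 was at 228 ± 14.1 TPM, MAGEA3 at 177 ± 5.54, MAGEA6 at 109 ± 3.03, MAGEA12 at 106 ± 1.11 and PRAME, an antigen of most melanomas, at 62.2 ± 1.75. MAGEC1 had 2, 6 and 8 counts and SSX1 0, 1 and 0. Members of these families are near-identical in sequence, so reads that match several copies make single levels uncertain, and 6 of the 23 listed genes were not analysed here, among them MAGEA2 and CTAG1B.

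The class I machinery was present, at an uneven level between the heavy chains. HLA-C was at 30.65, 32.1 and 28.8 TPM and HLA-B at 7.104, 6.94 and 6.115, without overlap. B2M, the light chain, was at 137 ± 7.06 TPM, TAP1 and TAP2, the peptide transporter, at 17.2 ± 0.6615 and 49.6 ± 0.951, and the immunoproteasome subunit PSMB8 at 16.4 ± 1.63. These genes are the most polymorphic of the genome, and reads of alleles unlike the reference can be lost, which was not tested. For class II, 5 of 10 genes were expressed (50%, against 73.4% of all protein-coding genes), with CD74 at 52.5 ± 2.62 TPM, HLA-DPB1 at 11.5 ± 0.355 and HLA-DRA at 5.16 ± 1.62. HLA-DRB1 and HLA-DQA1 had 0 counts in each library, and the activator CIITA was at 0.698 TPM, below the threshold. Of the checkpoint ligands, PVR led at 158 ± 5.39 TPM, ahead of NT5E and CD276. CD274, which encodes PD-L1, was at 18.98, 21.6 and 20.9 TPM, its stabilizer CMTM6 at 85.4, 88.4 and 96.7, and CD47 at 22.1 ± 1.704. CD80 had 3, 0 and 1 counts. VTCN1 had 3, 3 and 1.

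Because the cells had received plasmid DNA, genes that sense nucleic acid and respond to interferon were examined. CGAS (chromosome 6, 73413515 to 73452276), which encodes the sensor of cytosolic DNA, had 1, 0 and 2 counts in replicates 1, 2 and 3, at or under the limit that a count of 0 allows. Its partner STING1 was at 14.55, 14.5 and 13.6 TPM, the DNA-binding protein IFI16 at 27.9 ± 3.32, TBK1 at 35.3 ± 1.70, IRF3 at 20.4 ± 1.56 and the nuclease TREX1 at 31.4 ± 3.33. The RNA sensor RIGI was at 5.95 ± 0.965, its adaptor MAVS at 75.25 ± 0.572 and TLR3 at 3.81, 4.38 and 4.81 TPM. IFNB1 had 0, 0 and 1 counts and IFNL1 1, 0 and 0. Of 27 interferon-stimulated genes 20 were expressed, near the 73.4% of all protein-coding genes, but 0 reached 100 TPM in each library and the median was 4.69 ± 0.4403 TPM. IFIT5, an RNA-binding antiviral protein, was at 50.5 ± 4.59 TPM and OAS3, an antiviral synthetase, at 44.2 ± 1.435. ISG15, an early interferon target, was at 14.7, 19.3 and 23.7 TPM and lowest in replicate 1, with IFIT1 at 2.496 ± 0.2625, MX1 at 3.52 ± 0.777, and RSAD2 had 0, 2 and 2 counts. No library without plasmid was used, so a response to the transfection was not tested.

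**Figure D5:**
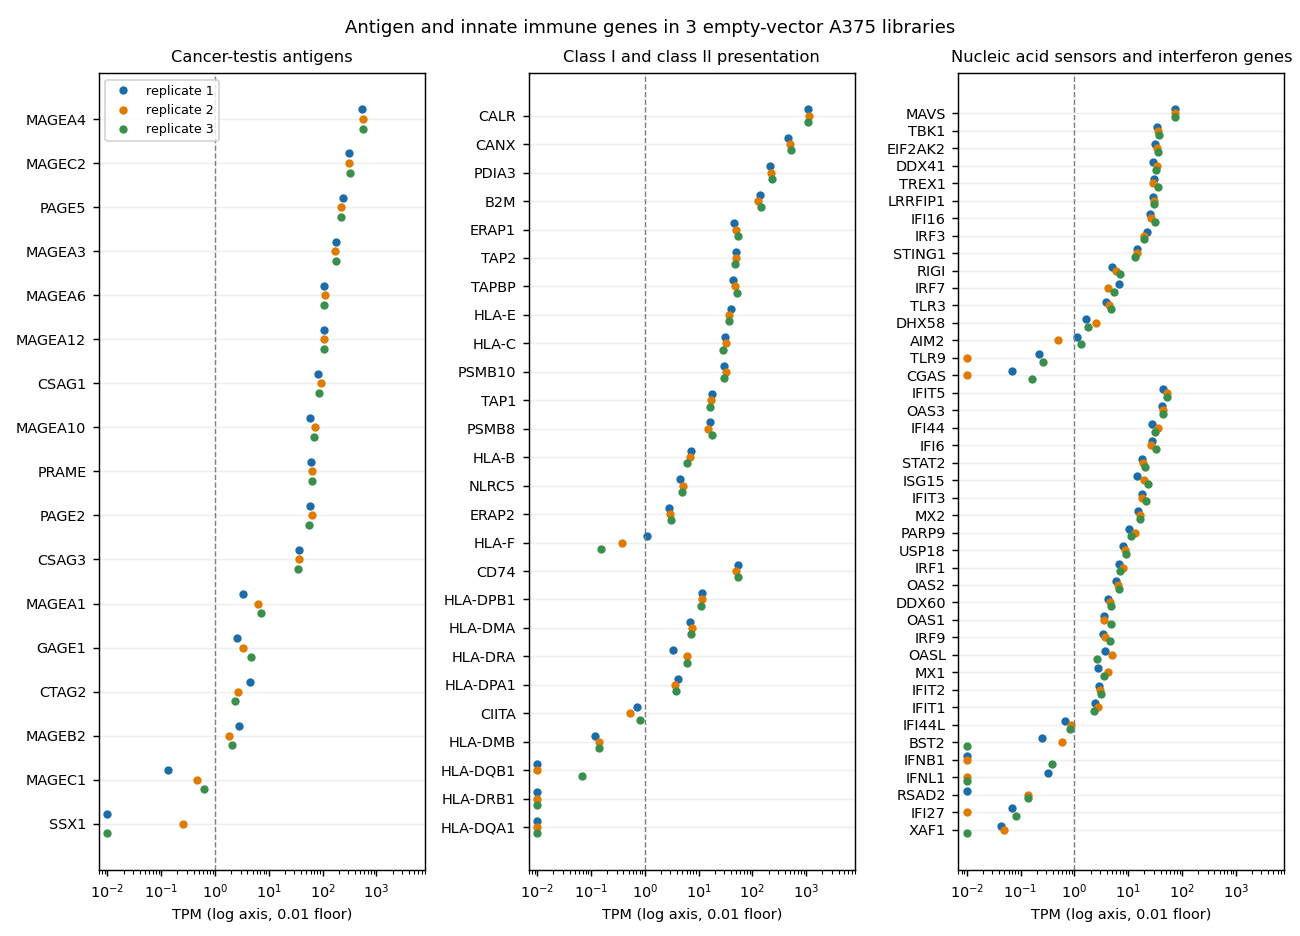
TPM of cancer-testis antigens, of class I and class II presentation genes, and of nucleic acid sensors and interferon genes (horizontal log axis, values under 0.01 drawn at 0.01) in the 3 libraries, one colour per replicate. MAGEA4 and MAGEC2 lead the antigens, CGAS and IFNB1 lie below the dashed line at 1 TPM in each library, and HLA-DRB1 has 0 counts.

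Among cadherins and their regulators, CDH2 stood highest, the catenins CTNNA1 and CTNNB1 were at 134 ± 2.225 and 96.5 ± 4.403 TPM, and SNAI1, TWIST2 and ZEB1 at 36.9 ± 3.005, 20.3 ± 1.49 and 14.5 ± 1.56. Of 22 measured integrin subunits 13 were expressed (59.1%, against 73.4% of all protein-coding genes). The laminin receptor chain ITGA3 was at 172, 183 and 179 TPM, ITGB1 at 116, 127 and 133, ITGA2 at 106, 115 and 119 and ITGA6 at 102, 112 and 120.3, and the last 3 overlapped. ITGA5, the fibronectin receptor chain, was at 81.9 ± 2.697 and ITGAV at 40.2 ± 3.64 TPM, while the leukocyte subunits ITGAM, ITGAL and ITGB2 had at most 2 counts in a library. ITGB3 was not analysed here. The laminin chains LAMB1 and LAMC1 were at 209 ± 8.85 and 147 ± 4.28 TPM, LAMA5 at 109 ± 5.42, the matricellular SPARC at 276 ± 9.23 and TNC at 111, 112 and 109. Collagen genes varied. Among fibrillar collagens COL1A1 was at 0.831, 0.943 and 1.05 TPM, COL5A1 at 14.8 ± 1.02 and COL5A2 at 10.1 ± 0.312. Among collagens of basement membranes COL4A1 and COL4A2 were at 39.2 ± 1.31 and 34.4 ± 1.28, COL18A1 at 2.61 ± 0.201 and COL7A1 at 1.51 ± 0.226.

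Among matrix proteases MMP2 and MMP3 led. MMP2, a gelatinase, was at 156, 150.3 and 157 TPM and MMP3, a stromelysin, at 145, 135 and 153, and they overlapped. MMP1, a collagenase, was at 32.7 ± 5.07 and the membrane-bound MMP14 at 14.7 ± 1.03. MMP9 had 1, 0 and 2 counts and MMP7 had 0 in each library. The inhibitors TIMP1, TIMP2 and TIMP3 were at 259 ± 9.34, 113 ± 0.517 and 37.9 ± 3.505 TPM, and TIMP1 stood at 1.68 ± 0.0826 times MMP2. Of the ADAM sheddases, ADAM9 was at 81.2 ± 3.704, ADAM10 at 28.95 ± 3.39 and ADAM17 at 21.8 ± 2.54. All 28 cytoskeletal genes were expressed, with the actin monomer binders TMSB10 and PFN1 at 2977 ± 95.7 and 1318 ± 26.8 TPM and filamin FLNA at 554 ± 7.57. Nuclear lamins were led by LMNA at 259 ± 13.6 TPM, 1.39 ± 0.133 times LMNB1 (2.91 times with the longest transcript).

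Glycolytic genes were among the higher lists. All 24 genes were expressed, with a median of 159.9 TPM. After GAPDH came ENO1 at 1271 ± 17.4, ALDOA at 1166 ± 33.7 and PKM at 743 ± 6.39 TPM. With the longest transcript as length ENO1 stood at 2084, PKM at 1672 and ALDOA at 1427 TPM, so the order of ALDOA and PKM depended on the gene model. LDHB was at 1.42 ± 0.0282 times LDHA with merged exons and 1.07 times with the longest transcript. The glucose transporter SLC2A1 stood at 12.5 ± 0.749 times SLC2A3, and the lactate carrier SLC16A1 at 170.5 ± 9.47 TPM beside SLC16A3 at 1.502 ± 0.1285. HIF1A, the oxygen-regulated factor, was at 200.1, 225 and 243 TPM and EPAS1 at 26.7, 27.3 and 27.97. Of 19 measured hypoxia factors and targets, 15 were expressed (78.95%, near the 73.4% of all protein-coding genes). The targets DDIT4, BNIP3 and BNIP3L were at 73.8 ± 0.9199, 54.9 ± 4.52 and 35.2 ± 2.48 TPM, ADM at 26.7 ± 1.10, P4HA1 at 25.5 ± 3.68, NDRG1 at 22.7 ± 0.665 and VEGFA at 7.199 ± 0.162. The targets CA12 and EGLN3 had at most 1 count in a library, and CA9 was at 0.843, 0.9903 and 1.796 TPM. Of the mitochondrial regulators, PPARGC1A was at 0.855, 1.22 and 1.59 TPM, and TFAM at 49.7 ± 4.08.

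Lipid, iron and stress genes were broadly expressed. All 22 genes of cholesterol and fatty acid synthesis were on, with FASN, the fatty acid synthase, at 240.2 ± 7.21 TPM, ACLY at 209 ± 4.94, and SCD, the stearoyl-CoA desaturase, at 102 ± 5.46. Of the antioxidant genes, PRDX1 was at 1338 ± 58.02 TPM, TXN at 723 ± 54.96, NQO1 at 256 ± 12.8, and the cystine carrier SLC7A11 at 36.6 ± 4.13. Among 20 genes of the unfolded protein response the chaperones CALR, HSPA5 and HSP90B1 stood at 1092 ± 17.1, 492 ± 7.29 and 399 ± 22.55 TPM and the factors ATF4, XBP1 and DDIT3 at 322 ± 15.8, 47.4 ± 3.13 and 24.1 ± 1.72. Heat-inducible HSPA1A and HSPA1B were at 113 ± 1.698 and 155 ± 1.89, far under the constitutive HSPA8. HSPA1A and HSPA1B are near-identical copies, so reads that match both make their single levels uncertain. For lysosomes, the autophagy receptor SQSTM1 was at 439 ± 3.703 TPM, PSAP at 338 ± 5.61, CTSD at 154 ± 5.15, and the factor TFE3 at 76.1 ± 3.21 beside TFEB at 0.896.

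Ribosomal RNA was depleted before sequencing, a method that can keep RNA without a poly(A) tail. All 36 replication-dependent histone genes with a known length were expressed, with a median of 438 ± 47.9 TPM. H2BC12, outside the list, led the histones at 3308, 3235 and 3111 TPM, then H1-2 at 2331, 2348 and 2282 and H4C6 at 2373, 2317 and 2253, which overlapped. H3C4 was at 2052 ± 36.3 and H2AC20 at 1474 ± 16.97 TPM. The gene models of 21 of the 36 have a length that is a multiple of 3, against 33.7% of all protein-coding genes, so part of them may hold the coding length alone, which raises TPM. Copies of these genes are near-identical, so single members are uncertain. Structural RNAs were also heavily counted. RN7SK, which restrains transcription elongation, held 172829, 143131 and 141085 counts (17029, 15808 and 15489 CPM), RMRP, a mitochondrial and ribosomal RNA processing RNA, 6419, 5715 and 5073 CPM, RN7SL1, the RNA of the signal recognition particle, 4164, 3131 and 3394 CPM, and RPPH1, the RNA of RNase P, 2907, 2743 and 2419 CPM. All 4 were highest in replicate 1. Small and structural RNAs together took 3.62%, 3.18% and 3.10% of counts in replicates 1, 2 and 3 but 36.6%, 34.2% and 33.5% of the TPM, because they are short. Without them in the total, the TPM of the 954 listed genes with counts was 1.504 to 1.578 times as high.

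RN7SL2, a copy of RN7SL1, was at 3094, 2159 and 2339.9 CPM, and RN7SL3, another, at 838, 579 and 649.9. The nuclear long non-coding RNA MALAT1 was at 2225, 2602 and 2502 CPM and overlapped RPPH1 and RN7SL2. NEAT1 was at 346, 555 and 494 CPM and was lowest in replicate 1. UCA1, a transcript known from bladder and other cancers, was at 326 ± 19.6 TPM, DANCR at 121 ± 5.05, MIR31HG at 20.2 ± 3.52 and PVT1 at 8.83 ± 0.999. LINC00673, the locus of SLNCR, had 195, 194 and 193 counts (19.2, 21.4 and 21.2 CPM) with no SLNCR plasmid in the cells. HIF1A-AS2, by its name an antisense RNA of HIF1A, had 835, 803 and 853 counts, beside 3661, 3498 and 3760 for HIF1A. VIM-AS1, at 1369.8, 1201 and 1173 CPM, shares 32.2% of its exon length with VIM. The strand setting of the counting is not given in the sources used here. Whether HIF1A-AS2 and VIM-AS1 hold reads of HIF1A and VIM was not tested.

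Variation between the libraries was small, and wide for few genes. Of 9353 genes with a mean of at least 100 counts, the median ratio of the highest to the lowest library was 1.10 in TMM-scaled CPM, and 27 genes exceeded 1.5. The widest was PLCG2, a phospholipase, at 12.57, 21.95 and 14.73 CPM in replicates 1, 2 and 3. TXNIP, a thioredoxin inhibitor that responds to glucose, was at 13.47, 7.9 and 11.02 CPM, and ARL6IP4 at 35.01, 20.85 and 29.36. The next were POTEC (1.65 times), the amino acid transporter SLC43A2 (1.65), ISG20, an interferon-induced nuclease (1.63), EML1 (1.595), CD81-AS1 (1.594), LINC00472 (1.584) and NEAT1 (1.575). Apart from NEAT1, these genes averaged 102.7 to 270 counts, so counting error is part of their spread.

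A few genes that most growing cells express had almost no counts, which limits what a low value means in this table. RPS10, a protein of the small ribosomal subunit, had 8, 3 and 6 counts, against a list median of 474 TPM for ribosomal proteins. The initiation factor EIF3C had 10, 4 and 6 counts, the oxygen sensor EGLN2 1, 1 and 2, and the asparagine synthetase ASNS 9, 7 and 10. These genes were singled out after their values were seen. RPS10 shares 39.4% of its exon length with other GENCODE genes, EGLN2 30.6% and ASNS 44.6%, whereas EIF3C shares 0% but has a near-identical copy. RefSeq entries named by a pair of gene symbols joined by a hyphen were taken as read-through entries, by name alone. Among 226 protein-coding genes named in such an entry, 134 (59.3%) were expressed at a median of 3.404 TPM. Among the other 14963 it was 73.6% at 12.1 TPM. By exon overlap alone the difference was smaller: 65.7% of 408 protein-coding genes with over 50% shared exon length were expressed at a median of 6.97 TPM, against 68.4% of 8087 genes with none at 9.998 TPM. MITF, SOX9, PMEL, CDH1, CGAS, AXL and CDKN2A share between 0% and 7.88% of their exon length with other genes. EIF3C shares 0% too, so a small share does not show that a low value is sound. Whether shared exons or read-through entries lowered any of these counts was not tested.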

How the data were processed

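RNA sequencing of 3 empty-vector A375 libraries was used. The values the authors deposited are raw counts: whole numbers per gene whose totals differ between libraries. The submitters' processing notes name cutadapt, STAR, DESeq2 (1.24.07) and GRCh38 without roles. The sources used here do not give the counter, the annotation or the strandedness. Of 20238 table entries, 1857 name no gene (2.44% to 2.59% of counts) and were left out. Where adjacent entries held the same counts in all 3 libraries (mean 10 or more, 23 such runs), 1 was kept and 65 were removed, leaving 18316 genes. GENCODE release 29 gave types, coordinates and merged exon lengths, and 11 genes without a length have no TPM. Mitochondrially encoded genes were not analysed here.

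TPM and CPM were computed from the counts, and no groups were compared. Spread came from edgeR 4.0.16 in R 4.3.3 (TMM scaling, default filter, intercept only), tested on simulated data. Floors cover counting error only. Members and gene lists were chosen with earlier results of these data known. By rule, the text names the 25 most abundant protein-coding genes, the 8 most counted non-coding genes, up to 6 leading members and the low lineage-defining members of each list, and the 10 most variable genes. Further list members are named for their roles and were chosen after their values were seen. Alternatives changed the threshold, length, total, scaling and filter, and left out each library. A few list members are counted in their lists but are not reported here by name.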

Additional observations from a re-analysis of the deposited data

Results flagged for a closer look

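Entries of the count table that name no gene held up to 2.59% of the counts of a library (2.44% to 2.59%). The unnamed entry with the most reads over the 3 libraries together had 22935, 24249 and 23036 counts in replicates 1, 2 and 3, far above the limit of 3 counts that a count of 0 allows, and 24249 was its highest value. Another unnamed entry had 32061, 19176 and 18056 counts, more than this one in replicate 1 alone. Which transcripts they count was not tested.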

How the results depend on the processing

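The number of expressed genes was 12446 and stayed between 11594 (2 TPM) and 13227 (0.5 TPM) over the alternatives run. For protein-coding genes it was 11143, between 10499 and 11721. Of 416 alternative counts of expressed members over 52 lists, 410 stayed within 1.5 times and 6 did not. Fibroblast markers went from 3 to 5 expressed at 0.5 TPM, at 10 counts and without small and structural RNA in the total. Blood and immune markers went from 1 to 2 at 0.5 TPM, without small and structural RNA in the total and without replicate 1 (1 to 2 over the libraries left out). The coefficient of variation was 3.24% to 5.28% when 1 library was left out. With the longest transcript as length, the TPM of 131 of 966 listed genes moved by over 1.5 times (0.788 to 5.80 times, median 1.02), among them BRAF, PKM and CDKN2A. Without small and structural RNA in the total, levels were a median of 1.53 times as high. No paired analysis was possible because the libraries form a single group. Lists of genes with few counts are imprecise: 10 counts on 2 kilobases correspond to 1.41 to 1.67 TPM.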

Other observations

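HOX genes, which record position along the body axis, were expressed at about the share of all protein-coding genes. Of 21 measured, 16 (76.2%, against 73.4%) passed 1 TPM in each library and 0 reached 100 TPM, with a median of 6.85 ± 0.569 TPM (SD over libraries, n = 3). HOXC10 was highest at 45.65, 46.7 and 47.9 TPM in replicates 1, 2 and 3, then HOXB7 at 28.4, 35.9 and 37.1 and HOXB2 at 34.5, 31.01 and 33.1, and the last 2 overlapped. The posterior genes HOXC13, HOXD13 and HOXB13 were at 22.8 ± 2.15, 12.6 ± 1.69 and 6.21 ± 0.671 TPM, while HOXA13 had 7, 1 and 4 counts and HOXD10 3, 4 and 5.

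Of 19 nuclear receptors 15 were expressed (78.95%, against 73.4%). The orphan receptor NR2F2 and the lipid-sensing PPARG led. NR2F2 was at 70.8, 76.25 and 73.9 TPM and PPARG at 66.5, 72.4 and 80.15, and they overlapped, followed by the glucocorticoid receptor NR3C1 at 58.4 ± 4.77. The estrogen receptors ESR1 and ESR2 were below the threshold, at 0.0761 and 0.127 TPM. Among 17 measured cytokines and chemokines 12 were expressed (70.6%), near that background. CXCL1 was at 117, 113 and 125 TPM and CXCL8 at 51.1, 52.9 and 63.0, IL11 at 81.6 ± 1.01, IL24 at 79.4 ± 4.21, LIF at 36.99 ± 1.54 and TGFB1 at 89.2 ± 0.749, whereas CCL5 had 0, 1 and 0 counts and IL6 was at 3.61 ± 0.446 TPM.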
